A study of Mus musculus with 386 samples.

Results

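Single germ cells from fetal mouse ovaries at E17.5 (embryonic day 17.5, 18 cells) are described here, with the genes that were highest in them, the genes that varied most from cell to cell and the genes that varied together. They are 18 of the 22 E17.5 libraries, and of 386 libraries in all. The choice took library numbers 1 to 22 without 8, 10, 15 and 16, which had been set aside because germ cell markers were low in them, so the level of those markers in the 18 cells is in part fixed by the choice. The series also holds oocytes of postnatal day 2.5 (P2.5, most of the libraries) and of postnatal day 6.5 (P6.5, 47 cells). All cells are labelled as female germ cells, and no strain, genotype or treatment is given for any stage. The ovaries were taken apart with enzymes and each germ cell was picked by hand. RNA was copied with Smart-seq2, which amplifies polyadenylated RNA from 1 cell. Per the labels no library has an animal, a litter or a pool, so each stage is 1 sample made of cells, no test between groups was made, and every difference below is a description of these cells. The 18 cells fall into numbers 1 to 7 and 9 (8 cells, called libraries 1 to 9) and numbers 11 to 14 and 17 to 22 (10 cells, called libraries 11 to 22). These subsets are given apart because their counts differ in ways that no label explains.

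In the fetal ovary germ cells leave mitosis, enter meiosis out of step with each other and pass through meiotic prophase in clusters. STRA8 and MEIOC act at entry into the programme. SPO11 then cuts the DNA at sites marked by the histone methyltransferase PRDM9, a mark that ZCWPW1 binds, and strand exchange proteins such as DMC1 repair the cuts from the homologous chromosome. Meanwhile the chromosomes form axes of cohesin, SYCP2, SYCP3 and HORMAD1 that the synaptonemal complex proteins SYCP1, SYCE1 and others zip together, and MAJIN and TERB1 hold the telomeres at the nuclear envelope. Around birth oocytes arrest at the end of prophase, and FIGLA, NOBOX, LHX8 and SOHLH1 switch on the genes of the primordial follicle. KIT is the receptor through which primordial germ cells, and later oocytes in follicles, respond to KIT ligand.

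Libraries 1 to 9 held 1016746 to 9789067 gene counts and libraries 11 to 22 held 1914052 to 10283446, and 14937 to 17283 genes had a count in a cell. Libraries 4 and 7 stood apart. They were the shallowest, library 4 had 14.2% of its counts on mitochondrially encoded genes, against 2.59% to 4.94% in the other 17 cells, and library 7 had 36.7% on rRNA rows, against 7.24% to 13.7%. In both, the counts also failed to follow the FPKM values deposited for the same library: the correlation across genes of their deviations from the mean of the 18 cells was 0.303 in library 4 and 0.105 in library 7, against 0.854 to 0.949 in the other 16. Libraries 18 and 19 carried the most transcripts of granulosa and stromal cells, with summed granulosa markers at 1963 and 1296 counts-per-million (CPM, counts of a gene per 1000000 gene counts of the cell), against 0.937 to 156.1 CPM in the other 16 cells. Foxl2, a transcription factor that defines granulosa cells, was at 77.5 CPM in library 18 and 151.8 CPM in library 19, and the hormone receptor Amhr2 at 939 and 207.03 CPM. The numbers of co-varying pairs, of genes with wide spread and of differing genes were therefore also computed without libraries 4 and 7, without 18 and 19, and without all 4.

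All 18 cells carried all 4 germ cell markers. Dazl, an RNA-binding protein of germ cells, lay at 636 to 2316 CPM with a median of 1291 in libraries 1 to 9, and at 515 to 2236 CPM with a median of 1091 in libraries 11 to 22. Ddx4, the germ cell RNA helicase, lay at 287.98 to 1035 CPM (median 626) in libraries 1 to 9 and at 71.5 to 1357 CPM (median 530.2) in libraries 11 to 22, the lowest value being that of library 18. Sycp3, the axis protein, lay at 190.3 to 675 CPM (median 373) in libraries 1 to 9 and at 50.2 to 332 CPM (median 155.98) in libraries 11 to 22. The ranges of the subsets overlapped for each of these genes. Meioc, which lets germ cells keep out of mitosis as they enter prophase, was the most uneven of the 4. It lay at 21.6 to 605 CPM (median 113.2) in libraries 1 to 9 and at 34.5 to 837 CPM (median 374) in libraries 11 to 22.

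The transcripts that filled these cells were those of ribosomes, mitochondria and red blood cells, with few germline genes among them. Levels are compared between genes on the deposited FPKM values, which divide by gene length. The highest median FPKM over the 18 cells was that of the rRNA row CT010467.1, at 160813 FPKM, followed by AY036118, a non-coding transcript, at 84333 FPKM. Of the 100 highest rows, 50 were ribosomal protein genes, 9 were mitochondrially encoded, 7 were gene models or pseudogenes and 4 were globin genes. Hba-a1, an alpha globin, had a median of 5536 FPKM and ranged from 495 to 20591 FPKM, and Hbb-bs, a beta globin, had 2974 FPKM. Globins are made by red blood cells, and the 4 globin genes measured were high and low in the same cells, with all 6 of their pairs at a correlation of at least 0.6 in both subsets. The other leading genes were housekeeping genes: Rplp1 of the ribosome stalk at 4235 FPKM, Eef1a1, which carries tRNA to the ribosome, at 2857 FPKM, Ppia, a peptide-bond isomerase, at 2441 FPKM, Cox6c of respiratory complex IV at 2017 FPKM, Ftl1, the ferritin light chain, at 1995 FPKM and the chaperone Hsp90aa1 at 1941 FPKM. AY036118 had a median of 0 CPM in the counts, so for this row the tables differ, and the cause was not tested.

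Sycp3 was the one germline gene among the 100 highest by FPKM, at rank 78 with a median of 1158 FPKM (202.2 to 2349 FPKM). It lies on chromosome 10 (88459569 to 88473236, plus strand, GRCm38). After it came Mael, a piRNA pathway protein, with 577 FPKM, Dazl with 499.7 FPKM, Hormad1 with 477 FPKM, and Tex101, a germ cell surface protein, with 453 FPKM. Syce3 of the synaptonemal complex had 429 FPKM, Zcwpw1 306.4 FPKM and Sycp1 300.9 FPKM. Ddx4 had 199.1 FPKM (rank 414) and Meioc 129.7 FPKM (rank 677), so the axis gene Sycp3 stood above the entry gene Meioc on the scale per length. The order depended on the table: of the 12 leading genes, 6 were also among the leading 12 by counts per kilobase of exon. On that scale Mael (451.444), Hormad1 (369.67), Sycp1 (317.87) and Dazl (295.876) stood above Sycp3 (244.949). The lead of Sycp3 over them thus held in the FPKM table only. Tex101, Syce3, Zcwpw1, Ddx4 and Meioc were below Sycp3 in both.

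**Figure D1:**
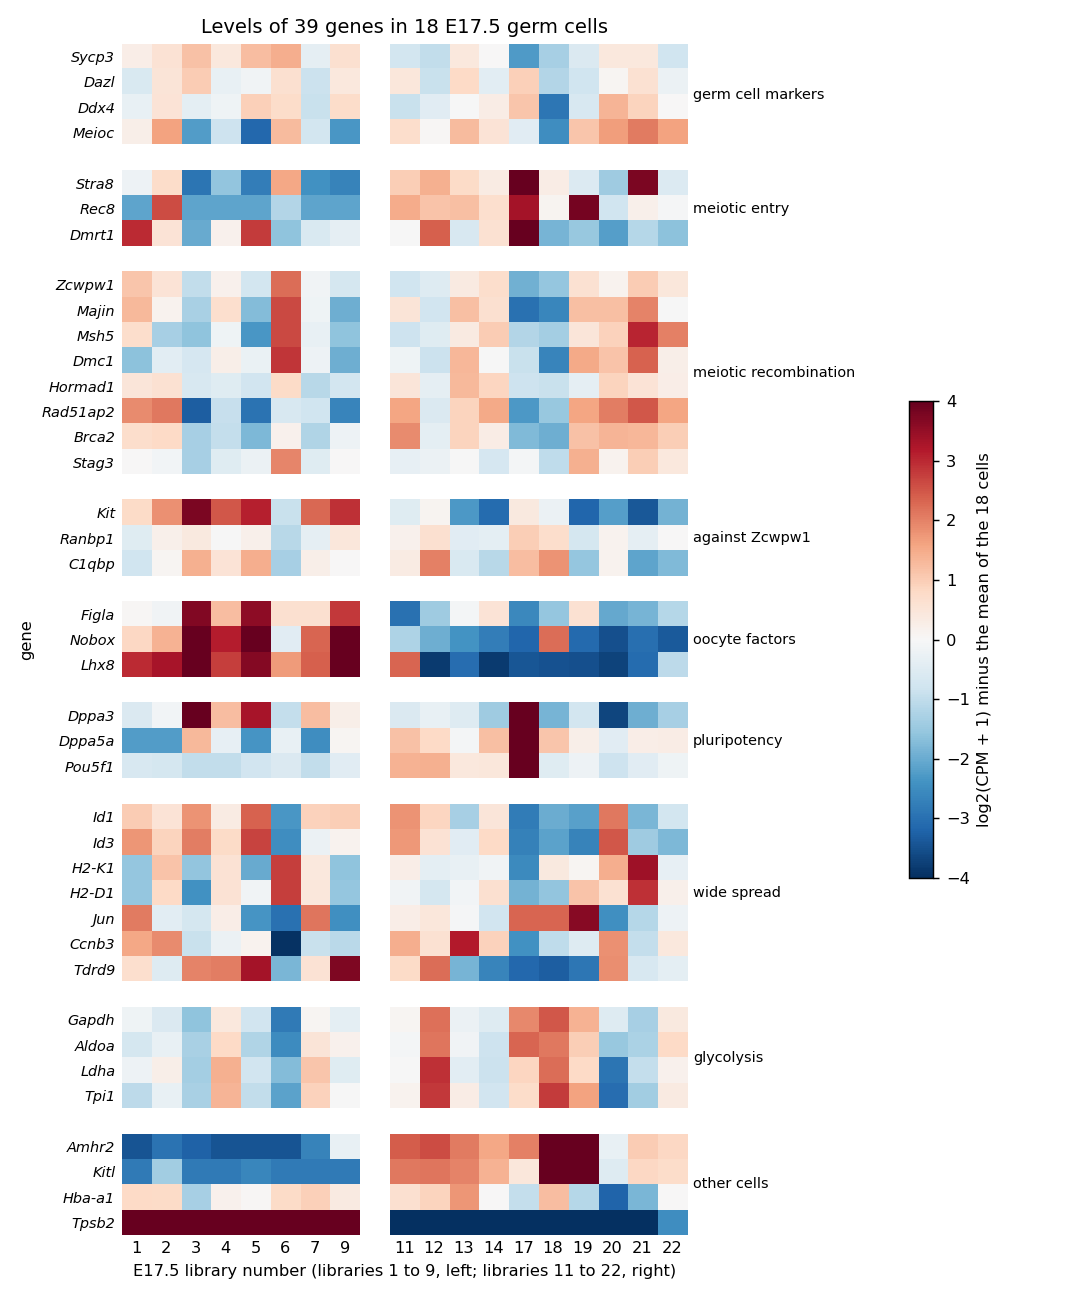
Level of 39 genes (rows, grouped by role) in each of the 18 E17.5 cells (columns, libraries 1 to 9 on the left and 11 to 22 on the right of the gap), drawn as log2(CPM + 1) minus the gene's mean over the 18 cells, on a colour scale from −4 to 4. Libraries 6 and 21 are high in most recombination genes, libraries 3, 5 and 9 in the oocyte transcription factors, library 17 in Stra8 and the pluripotency genes, and libraries 18 and 19 in granulosa markers.

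The cells differed from each other in blocks of genes, as the plot of levels by cell shows. Library 6 and library 21 had the highest summed strand exchange genes of their subsets. Library 6 had 662 CPM of Dmc1, 401 CPM of Prdm9 and 2122 CPM of Stag3, a meiotic cohesin subunit, and the strand exchange sum stood at 2312 CPM, against a median of 905 CPM in libraries 1 to 9. Library 21 had 463 CPM of Dmc1 and 280.9 CPM of Prdm9, and the strand exchange sum stood at 2522 CPM, against a median of 1369 CPM in libraries 11 to 22. Prdm9 was higher still in library 19, at 318 CPM. Both cells were also low in Kit, at 75.9 CPM in library 6 and 12.6 CPM in library 21, the lowest value of each subset.

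Libraries 3, 5 and 9 showed the other end. Figla stood at 695 CPM in library 3, 649 CPM in library 5 and 380.4 CPM in library 9, against 48.2 to 126.9 CPM in the other 5 cells of libraries 1 to 9. Nobox followed the same order, at 696, 601 and 249.8 CPM in these 3 cells and at 9.7 to 127.9 CPM in the other 5. Kit was also highest in them, at 1936, 1225 and 1077 CPM, and Meioc lowest, at 41.2, 21.6 and 38.6 CPM. Library 3 had 59.5 CPM of Zp2, an egg coat protein, from 381 counts. The 3 cells were picked with such values known, so their separation from the other 5 in Figla, Nobox, Kit and Meioc is no separate result. The cells named in this section, and the genes shown for them beyond the markers, were singled out after their values were seen.

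Library 17 carried the most Stra8 and pluripotency transcripts. Stra8, the retinoic acid target that marks entry into meiosis, had 809 CPM in it, against 6.61 to 276.7 CPM in the other 9 cells of libraries 11 to 22 and 1.72 to 58.9 CPM in libraries 1 to 9. Pou5f1, a pluripotency factor that primordial germ cells use, had 42.5 CPM, against at most 4.26 CPM in any of the other 17 cells. Dppa5a, another pluripotency gene, had 277.9 CPM and Dppa3, which primordial germ cells and later oocytes both make, 551 CPM. Sycp3 was at 50.2 CPM and Zcwpw1 at 109.3 CPM, the lowest values of all 18 cells. Its Dazl, at 2236 CPM, was the highest of its subset.

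Genes of meiotic prophase varied together in both subsets. Correlations were taken over cells, on log2(CPM + 1) and within each subset (n = 8 and n = 10), for the 5942 genes with a median of at least 10 CPM in both, and no p-value goes with them. A pair was counted as high when its Pearson r was at least 0.6 in both subsets, which share no cell. Over all pairs of genes 0.572% were high in both (100914 of 17650711), although 9.06% were high in libraries 1 to 9 alone and 5.2% in libraries 11 to 22 alone. Among 56 genes of the meiosis lists (entry, synaptonemal complex, cohesin, break formation, strand exchange, crossover formation and telomere attachment, 77 listed), 76 of 1540 pairs were high in both, which is 4.94%. In single subsets 15.1% of the meiosis pairs were high in libraries 1 to 9 and 19.1% in libraries 11 to 22. The count was 83 pairs without libraries 4 and 7, 75 without 18 and 19 and 85 without all 4, while the share over all gene pairs was then 0.734%, 0.804% and 1.05%. It was 53 pairs without library 6 alone. The correlation across all meiosis pairs between the r of one subset and the r of the other was 0.27, against 0.053 over all gene pairs, so most single pairs did not keep their r from one subset to the other.

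The genes with the most partners in this group were Majin and Zcwpw1, with 11 each. Dmc1 and Meioc had 9 each, Rad51ap2 had 8, and Hormad1 and Meiob, a single-strand DNA binding protein of recombination, had 7 each. At least 5 partners were found for 16 genes. They span telomere attachment (Majin), break sites (Zcwpw1, Prdm9, Mei1), strand exchange (Dmc1, Meiob, Rad51ap2, Brca2) and crossovers (Hfm1, Msh5). They also span axes (Hormad1, Sycp3, Stag3, Smc1b), the synaptonemal complex between the axes (Tex12) and entry (Meioc). Over all 5942 genes a gene had a median of 28 partners, and Dmc1 had the most of any. In libraries 1 to 9 some pairs of Dmc1 rested on library 6: its r with Zcwpw1 was 0.63 with that cell and −0.07 without it, and its r with Stag3 was 0.67 with it and −0.41 without it. Its r with Rad21l was 0.74 with that cell and 0.66 without it.

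The promoters of these 16 genes are shown because E-boxes and a STRA8 and MEIOSIN motif are known features of meiotic promoters in the mouse. For 14 of them RefSeq gave 250 bases before the start of transcription (build GRCm38.p6). Majin and Meiob had no entry. The E-box CACGTG was looked for on both strands and found for 4 genes, and it was in 6.02% of 32851 single promoters of the same length. The motif CNCCTCAG, the binding motif given for STRA8 and MEIOSIN, was looked for on both strands and found for 3 other genes. It was in 6.42% of all single promoters. A gene counted if any of its promoter entries held the motif, so the counts of genes and the shares of promoters are of unlike units. The motifs do not overlap each other in these promoters. In the sequences below, written 5′ to 3′ on the gene's strand, capitals mark the matches, which describe letters and not binding.
Hormad1 (chr3:95559427-95559676, plus strand): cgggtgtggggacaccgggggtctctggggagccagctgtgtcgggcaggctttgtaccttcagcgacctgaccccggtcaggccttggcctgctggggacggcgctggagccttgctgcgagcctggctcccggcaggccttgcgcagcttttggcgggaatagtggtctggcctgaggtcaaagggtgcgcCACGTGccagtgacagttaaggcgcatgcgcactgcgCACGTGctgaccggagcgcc
Sycp3 (chr10:88459337-88459586, plus strand): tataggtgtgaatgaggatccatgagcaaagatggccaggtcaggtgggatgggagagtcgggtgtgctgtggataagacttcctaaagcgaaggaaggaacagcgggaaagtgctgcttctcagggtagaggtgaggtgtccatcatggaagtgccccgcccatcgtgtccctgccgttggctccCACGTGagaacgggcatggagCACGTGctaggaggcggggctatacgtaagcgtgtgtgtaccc
Tex12 (chr9:50561269-50561518, minus strand): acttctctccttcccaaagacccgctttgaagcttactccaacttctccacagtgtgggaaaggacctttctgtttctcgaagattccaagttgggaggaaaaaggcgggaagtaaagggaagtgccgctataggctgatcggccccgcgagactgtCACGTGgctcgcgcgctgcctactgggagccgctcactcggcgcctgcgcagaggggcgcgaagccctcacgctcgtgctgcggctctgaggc
Stag3 (chr5:138280259-138280508, plus strand): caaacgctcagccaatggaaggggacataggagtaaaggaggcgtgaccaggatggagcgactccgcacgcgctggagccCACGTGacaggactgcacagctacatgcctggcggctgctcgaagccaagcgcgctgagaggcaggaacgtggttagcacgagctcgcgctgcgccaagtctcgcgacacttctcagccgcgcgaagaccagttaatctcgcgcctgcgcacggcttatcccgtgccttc
Hfm1 (chr5:106925891-106926140, minus strand): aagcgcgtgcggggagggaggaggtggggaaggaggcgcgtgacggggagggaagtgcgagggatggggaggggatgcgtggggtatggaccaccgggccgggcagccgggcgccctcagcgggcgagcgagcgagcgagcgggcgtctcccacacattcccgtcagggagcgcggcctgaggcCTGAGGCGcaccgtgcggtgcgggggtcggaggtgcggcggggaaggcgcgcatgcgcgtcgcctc
Msh5 (chr17:35046623-35046872, minus strand): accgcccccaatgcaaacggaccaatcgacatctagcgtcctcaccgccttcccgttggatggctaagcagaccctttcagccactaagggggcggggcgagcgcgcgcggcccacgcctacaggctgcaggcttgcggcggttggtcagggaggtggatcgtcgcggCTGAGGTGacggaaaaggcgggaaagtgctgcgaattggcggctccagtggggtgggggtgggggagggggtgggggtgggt
Prdm9 (chr17:15564355-15564604, minus strand): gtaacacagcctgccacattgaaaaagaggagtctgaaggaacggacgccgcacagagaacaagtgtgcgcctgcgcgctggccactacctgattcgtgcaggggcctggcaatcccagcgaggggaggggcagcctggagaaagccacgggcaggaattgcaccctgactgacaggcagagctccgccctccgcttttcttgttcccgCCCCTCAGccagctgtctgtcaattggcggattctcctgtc

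Sycp3 holds its E-boxes 64 and 43 bases before the start, and Hormad1 57 and 20 bases before it. In Tex12 the E-box lies 93 bases and in Stag3 170 bases before the start. The STRA8 and MEIOSIN motif lies 41 bases before the start in Prdm9, 66 in Hfm1 and 82 in Msh5.

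Among the 76 meiosis pairs, the 2 whose weaker r was highest were those of Zcwpw1 with Majin and with Msh5. Zcwpw1 lies on chromosome 5 (137787798 to 137822621, plus strand) and had 206.4 to 1935 CPM (median 421) in libraries 1 to 9 and 109.3 to 832 CPM (median 491) in libraries 11 to 22. Majin, on chromosome 19 (6184388 to 6224225, plus strand), had 13.3 to 343 CPM and 5.9 to 218.98 CPM in the same subsets. Cells high in one were high in the other: r was 0.95 in libraries 1 to 9 and 0.90 in libraries 11 to 22, with Spearman's rho at 0.88 and 0.78. Msh5, a partner in crossover formation, followed Zcwpw1 with r of 0.91 and 0.87, and Pcx, the mitochondrial pyruvate carboxylase, with 0.90 and 0.97. Rpgrip1l, a protein of the base of cilia, followed with 0.91 in both. Zcwpw1, Kit and the other genes named in this and the next 2 paragraphs as centres of a group, apart from Meioc, Sycp3 and Stra8, were chosen after their values were seen.

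Kit was the mirror image of Zcwpw1. It lies on chromosome 5 (75574916 to 75656722, plus strand). In libraries 1 to 9 Kit had 1936 CPM in library 3, where Zcwpw1 had 206.4 CPM, and 75.9 CPM in library 6, where Zcwpw1 had 1935 CPM. Over the 8 cells r was −0.98 and rho −0.98. In libraries 11 to 22 Kit was much lower, at 12.6 to 184.8 CPM, and library 17 with the highest Kit had the lowest Zcwpw1, while library 21 with the lowest Kit had the highest Zcwpw1. Over these 10 cells r was −0.92 and rho −0.92. The correlation was as strong with each single cell left out (r between −0.991 and −0.963 in libraries 1 to 9, and between −0.966 and −0.907 in libraries 11 to 22), without libraries 4 and 7 (−0.99), without 18 and 19 (−0.92) and in the FPKM table (−0.89 in the weaker subset). Between Zcwpw1 and gene counts r was 0.19 in libraries 1 to 9 and 0.04 in libraries 11 to 22. Genes on the side of Kit were Ranbp1 of the nuclear transport cycle (r of 0.91 and 0.93), the mitochondrial matrix protein C1qbp (0.92 and 0.89), the splicing factor Hnrnpa1 (0.94 and 0.84) and the mRNA-binding protein Ybx1 (0.91 and 0.80).

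**Figure D2:**
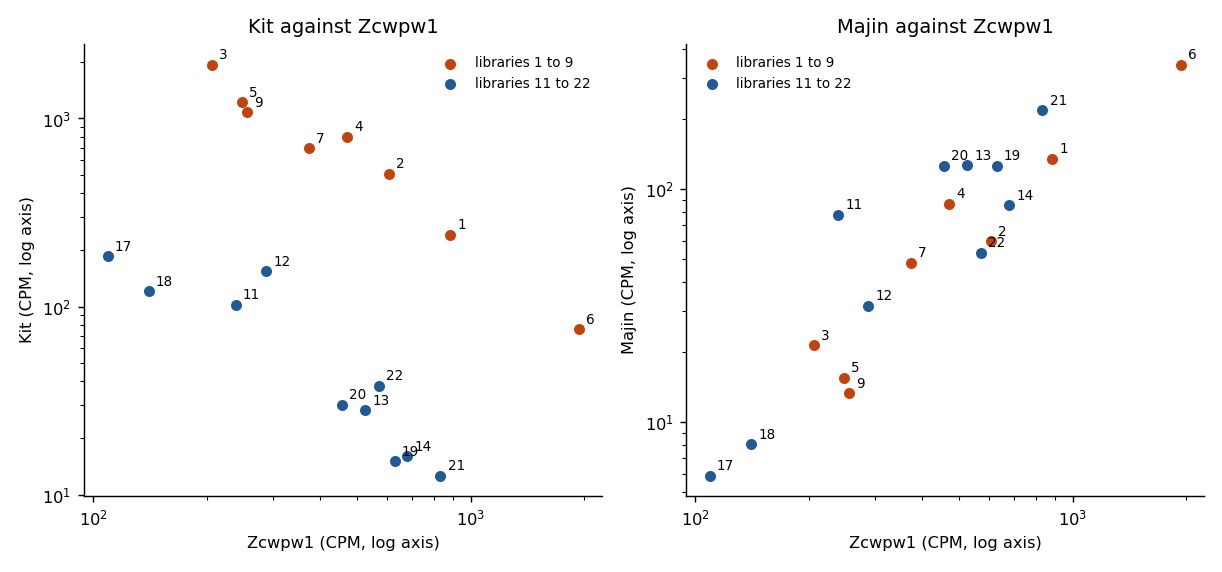
Zcwpw1 level (horizontal axis) against Kit and against Majin (vertical axes) in each of the 18 E17.5 cells, all in CPM on log axes, with libraries 1 to 9 and 11 to 22 in separate colours and the library number beside each point. Kit runs downward within each subset (r of −0.98 and −0.92) at levels that differ between the subsets, and Majin runs upward (0.95 and 0.90) with the subsets mixed.

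Meioc and Sycp3, as centres fixed in the rule for named genes, had different partners. Meioc was closest to Rpgrip1l (r of 0.96 in libraries 1 to 9 and 0.85 in libraries 11 to 22), Rad51ap2 (0.86 and 0.84), Majin (0.83 and 0.86), the ubiquitin ligase Arih2 (0.82 and 0.82, the second of which was 0.43 without libraries 18 and 19), the DNA-end nuclease Mre11a (0.81 and 0.84) and Zcwpw2 (0.81 and 0.96). Opposite to it were the phosphatase Ppm1b (−0.94 and −0.84) and the proteasome subunit Psmb3 (−0.84 and −0.88). Sycp3 was closest to Sub1, a transcription cofactor (0.96 and 0.78), the meiotic cohesin Rad21l (0.77 and 0.82), the cold-inducible RNA-binding protein Cirbp (0.77 and 0.82), the germ cell gene Tex15 (0.77 and 0.78), Cbwd1 (0.80 and 0.75) and the meiotic cohesin Smc1b (0.75 and 0.85), and opposite to the glycolytic enzyme Aldoa (−0.81 and −0.89). Sycp3 also had an r of 0.80 with the depth of libraries 1 to 9, against 0.07 in libraries 11 to 22, and without libraries 4 and 7 its r in that subset was 0.35 with Tex15, 0.59 with Cirbp and 0.58 with Smc1b. The part of depth in these pairs was not tested.

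Stra8 had 26 genes with r of at least 0.6 and 29 with r of at most −0.6 in both subsets. The condensin subunit Ncapd2 (0.74 and 0.74) and Cdca8 of the chromosomal passenger complex (0.77 and 0.69), both used in dividing chromosomes, were among its 6 closest, and the endocytic adaptor Epn1 was the most opposed (−0.91 and −0.87). Figla had 14 and 5 such genes and Fos 9 and 1. Over all 5942 genes the median was 28 genes with r of at least 0.6 in both subsets. Stra8, Figla and Fos thus had no more such partners than the median gene. For Figla the closest were Flywch1 (0.85 and 0.71) and the kinase Dclk2 (0.80 and 0.70), and the most opposed was Cdc20, an activator of the anaphase-promoting complex (−0.75 and −0.79). Its r with Lman2l, 0.70 and 0.65 in the counts, was −0.31 in the weaker subset of the FPKM table.

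The glycolysis sum ran against the strand exchange and synaptonemal complex sums in both subsets. In libraries 1 to 9 library 6 lay at the extreme of all of them. Among 13 glycolysis genes, 12 of 78 pairs were high in both (15.4%, against 0.572% of all pairs), and the number was also 12 without libraries 4 and 7, without 18 and 19 or without all 4. Gapdh and Aldoa had an r of 0.93 in libraries 1 to 9 and 0.96 in libraries 11 to 22, Gapdh and the lactate dehydrogenase Ldha 0.89 and 0.86, and Gapdh and Sycp3 −0.80 and −0.83. In the FPKM table the weaker subset gave 0.03 for Gapdh and Aldoa, and Gapdh has many pseudogene copies that can share its reads. The sum of the glycolysis genes had an r of −0.80 and −0.84 with that of the strand exchange genes, and −0.72 and −0.86 with that of the synaptonemal complex genes. With other meiosis sums it was less even: with cohesin r was −0.73 and −0.42, and with meiotic entry −0.41 and −0.58, which became 0.13 without libraries 4 and 7 and −0.30 without 18 and 19. In libraries 11 to 22 the glycolysis sum was highest in libraries 12, 18, 17 and 19, at 7876, 6825, 5291 and 4363 CPM, and libraries 18 and 19 are those with granulosa markers. Without them r with strand exchange was −0.81. The part of granulosa transcripts in this relation was not tested beyond that. Among libraries 1 to 9, library 6 had the lowest glycolysis sum, at 896 CPM. It also had the highest strand exchange and synaptonemal complex sums, at 2312 and 6662 CPM. The part of that cell in the r of libraries 1 to 9 was not tested.

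The sum of the strand exchange genes also followed that of the synaptonemal complex genes, with r of 0.84 and 0.92, and that of the break formation genes, with 0.76 and 0.77. It ran against the sum of the cell death genes, with −0.90 and −0.70. Among these, Bbc3, a trigger of apoptosis that p53 induces, stood at 458 CPM in library 7 and at most 21.1 CPM in the other 7 cells of libraries 1 to 9, and at 6.11 to 134.8 CPM in libraries 11 to 22. A sum leans on its most abundant members. Among libraries 1 to 9, library 6 was highest in the strand exchange, synaptonemal complex and break formation sums and lowest in the cell death sum. Its break formation sum was 4509 CPM, against 786 to 2059 CPM in the other 7 cells. The part of library 6 in these r values was not tested. Pairs high in both subsets were not particular to the meiosis lists, where they were 4.94%, against 0.572% of all pairs. The proliferation list gave 2 of 91 pairs (2.2%, and 0 without libraries 18 and 19), and the DNA damage checkpoint list 2 of 45 (4.44%). The piRNA and germ granule list gave 5 of 66 (7.58%), and 2 of 66 (3.03%) without libraries 18 and 19. The cell death list gave 1 of 6. Taken alone, the meiotic entry, cohesin and telomere attachment lists gave 0 of 10, 0 of 28 and 0 of 3.

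**Figure D3:**
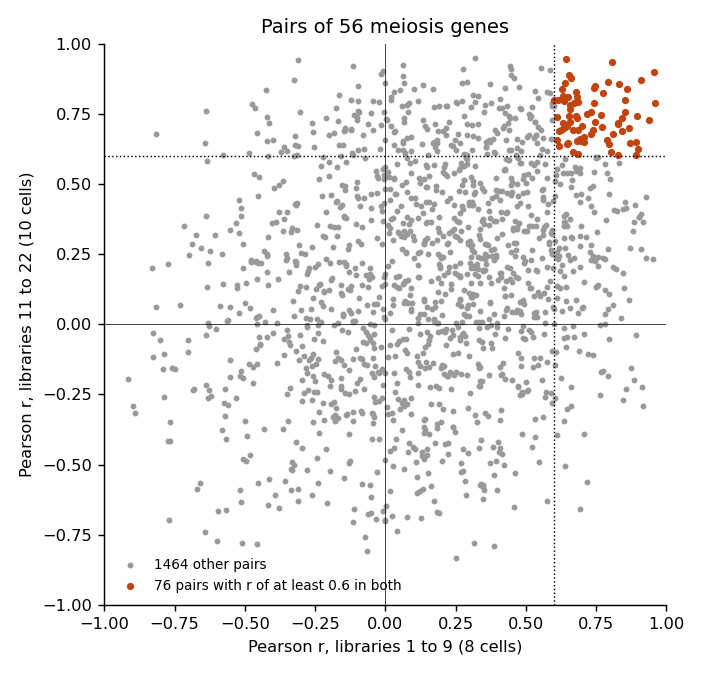
Pearson r of each of the 1540 pairs of 56 meiosis genes over the 8 cells of libraries 1 to 9 (horizontal axis) and over the 10 cells of libraries 11 to 22 (vertical axis), with the 76 pairs at or above 0.6 in both marked. The marked pairs are 4.94% of the meiosis pairs, against 0.572% of all gene pairs, and the cloud as a whole has a correlation of 0.27 between the subsets.

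The spread from cell to cell was wide for most genes and low for the genes of ribosomes and respiration. Spread is the SD over the cells of a subset of log2(CPM + 1), for genes with a mean of at least 20 CPM there. Its median was 1.23 over 7253 genes in libraries 1 to 9 and 1.37 over 7535 genes in libraries 11 to 22. It was 1.40 in libraries 1 to 9 without 4 and 7, and 1.23 in libraries 11 to 22 without 18 and 19. The 79 ribosomal protein genes had a median spread of 0.454 and 0.455, and 78 nuclear genes of the respiratory chain 0.606 and 0.565. The spike-in RNAs, which come from no cell, give a partial measure of spread from the method. Each was scaled by the spike-in total of its cell, which holds down the spread of the most abundant ones. The gap to genes at high levels is therefore in part set by this scaling, and each group below held only 5 to 9 spike-ins. Spike-ins of at least 500 CPM had a median spread of 0.182 and 0.187, against 0.563 and 0.575 for genes of the same mean level. At 100 to 500 CPM the values were 0.55 and 0.352 for spike-ins, against 0.815 and 0.948 for genes. At 20 to 100 CPM they were 1.36 and 0.901, against 1.42 and 1.55, so that in libraries 1 to 9 low genes varied little more than low spike-ins.

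Because spread depends on the mean, each gene's spread was set against a running median over genes of like mean, and the difference was called its excess. Of the 200 genes of highest excess in libraries 1 to 9, 18 were also among the 200 of libraries 11 to 22, which is 9% of each list, and 2.29% of the 6339 genes measured in both subsets were on the list of libraries 11 to 22. The number was 20 without libraries 4 and 7, 17 without 18 and 19 and 21 without all 4. Without library 6 it was 8. The excess of one subset had a correlation of 0.40 across genes with that of the other, and genes are not independent replicates.

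Of the 12 genes of highest excess in both subsets, Ccnb3, Id3 and Tdrd9 came first. Ccnb3, a cyclin of meiotic cells, lies on the X chromosome (6979652 to 7041619, minus strand) and had 30.7 to 1844 CPM (median 344) in libraries 1 to 9 and 92.2 to 4422 CPM (median 713) in libraries 11 to 22, with an excess of 1.26 and 1.11. Library 13 was the highest and library 6 the lowest of the 18. Tdrd9, a piRNA pathway helicase on chromosome 12 (111971559 to 112068854, plus strand), had 28.6 to 1405 CPM and 9.7 to 492 CPM in the same subsets, with an excess of 1.32 and 1.04. It was highest in libraries 9 and 5. Map10, a microtubule-associated protein, Nell2, a secreted protein, Abca2, a lipid transporter, and Cecr2, a bromodomain protein, had excesses between 0.81 and 1.40. Tesmin, a testis and meiosis protein, had 0.82 and 1.02. Lrsam1, a ubiquitin ligase, had 1.19 and 0.85 and was under the level limit without libraries 4 and 7.

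The BMP targets Id1 and Id3, inhibitors of helix-loop-helix transcription factors, varied as a pair. Id1, on chromosome 2 (152736251 to 152737410, plus strand), had 99.4 to 2598 CPM (median 988) in libraries 1 to 9 and 71.8 to 2177 CPM (median 251.8) in libraries 11 to 22. Id3, on chromosome 4 (136143497 to 136145755, plus strand), had 43.9 to 1612 CPM and 37.4 to 1383 CPM. Their r was 0.91 in libraries 1 to 9 and 0.96 in libraries 11 to 22. Library 5 was highest in both genes among libraries 1 to 9, and library 20 among libraries 11 to 22, while library 6 and library 17 were lowest in both genes. Library 6 is also the cell of highest Zcwpw1, whereas library 17 has the lowest.

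H2-K1 and H2-D1, the class I antigen-presenting molecules, were high in the cells with most recombination transcripts. H2-K1, on chromosome 17 (33996017 to 34000347, minus strand), had 1923 CPM in library 6, against 67.7 to 613 CPM in the other 7 cells of libraries 1 to 9. It had 2950 CPM in library 21, against 47.2 to 759 CPM in the other 9 cells of libraries 11 to 22. H2-D1 had 1420 CPM in library 6 and 1585 CPM in library 21, the highest value of each subset. The r of H2-K1 and H2-D1 was 0.89 and 0.80, with rho at 0.79 and 0.53, and the genes are close copies that can share reads. The chaperone Hsp90ab1 ran against H2-K1, with r of −0.98 and −0.79 and rho of −0.76 and −0.58, and in libraries 11 to 22 they were 0.58 for H2-D1 and −0.57 for Hsp90ab1 without library 21.

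Jun, a stress and growth response transcription factor, had an excess of 0.91 and 0.93, which was 0.33 without libraries 4 and 7 and 0.17 without 18 and 19. It stood at 762 CPM in library 19 and 301.5 CPM in library 18, against 10.02 to 304.8 CPM in the other 8 cells of libraries 11 to 22, and at 6.64 to 270 CPM in libraries 1 to 9. Its r with the autophagy receptor Sqstm1 was 0.90 in both subsets, and its r with Junb was 0.80 and 0.76, the second of which was 0.39 without libraries 18 and 19. The genes of lowest excess were Romo1 and Ndufb9 and Ndufb5 of mitochondria, Polr2j of RNA polymerase II, Ranbp1 and the row AC126807.1. Romo1 ranged only from 30.6 to 63.5 CPM in libraries 1 to 9 and from 23.02 to 83.03 CPM in libraries 11 to 22.

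**Figure D4:**
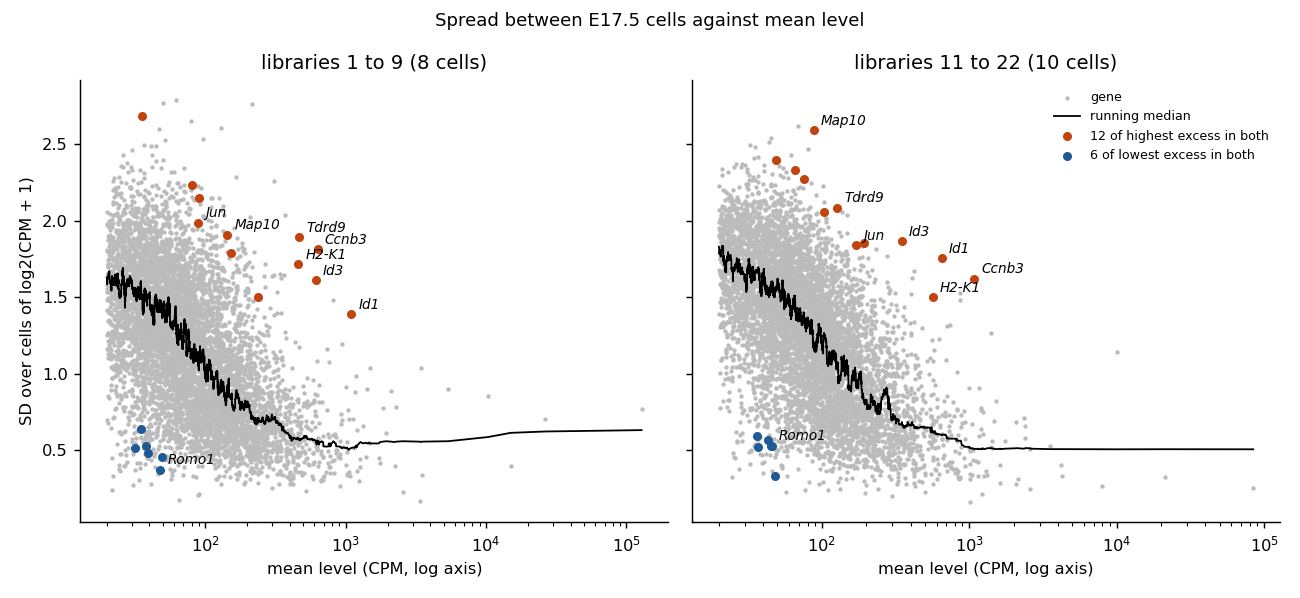
Cell-to-cell spread (SD of log2(CPM + 1), vertical axis) against mean level (CPM, log axis) of each gene in libraries 1 to 9 (left) and libraries 11 to 22 (right), with the running median as a line and the 12 genes of highest and 6 of lowest excess in both subsets in colour. Spread falls with mean level, and Ccnb3, Id1, Id3 and H2-K1 lie far above the line in both panels, with an excess of 0.877 to 1.26.

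By role, break formation was wide, with a median spread of 1.58 in libraries 1 to 9 and 1.73 in libraries 11 to 22 over 7 genes, as was telomere attachment, with 1.44 and 1.51 over 3 genes. Cell death had 1.75 and 1.62 over 6 genes. Strand exchange had 1.31 and 1.34 over 11 genes. The 10 synaptonemal complex genes had 0.754 and 0.864, and the 8 cohesin genes 1.01 and 1.16. The piRNA list had 0.892 and 1.16 over 14 genes, the oocyte transcription factors 1.3 and 1.25 over 6, and glycolysis 1.10 and 1.32 over 13. Over all genes the medians were 1.23 and 1.37. Lists differ in mean level, and the median excess of break formation was 0.53 and 0.35, and that of telomere attachment 0.64 and 0.41, against 0.06 and 0.07 for the synaptonemal complex. Cohesin, at 0.02 and 0.23, strand exchange, at 0.20 and 0.15, and cell death, at 0.25 and 0.07, did not keep one order in both subsets.

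Libraries 1 to 9 and 11 to 22 differed in genes of other cell types and in oocyte factors. A ratio is that of mean CPM over cells after adding 0.5 CPM, for genes with a mean of at least 5 CPM in either subset. Of 12671 genes, 17.4% were at least 2-fold higher in libraries 1 to 9 and 21.5% at least 2-fold lower, with a median log2 ratio of −0.15. No label tells the subsets apart, so a batch and the age or state of the cells cannot be told apart. The median log2 ratio was −0.55 when counts were scaled by spike-ins and −0.06 with median-of-ratios scaling.

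Libraries 1 to 9 held mast cell transcripts. All 8 genes of the mast cell list were at least 2-fold higher in them, against 17.4% of all genes. They passed the level limit only through libraries 1 to 9 and could only come out higher, so that count is no separate result. The list was led by the proteases Cpa3 (333 to 3276 CPM, against 0 to 0.145 CPM in libraries 11 to 22), Tpsb2 (463 to 4249 CPM, against 0 to 3.77 CPM) and Cma1 (413 to 4042 CPM, against 0 to 25.4 CPM). Mcpt4, Tpsab1, Prss34 and Hdc, the histamine-forming enzyme, were the other leading genes. The 8 genes summed to 14023 to 31499 counts in the 8 cells, whatever their depth (r with gene counts 0.06), and to at most 0.00254% of gene counts in any of libraries 11 to 22. Library 10, which the choice left out, had 1115775 such counts, 12.4% of its total. The sum in each of the 8 cells was 1.26% to 2.82% of that, and its split over the 8 genes followed that of library 10 with a correlation of at least 0.984. Whether these reads came from library 10 was not tested.

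Some late oocyte genes also had counts in libraries 1 to 9. Bmp15, Oosp1, Padi6, Nlrp5, Nlrp14 and Zar1, which growing oocytes make, summed to at least 34 counts in each of libraries 1 to 9 (r with gene counts 0.80) and to 0 in libraries 11 to 22 except for 2 counts in library 22. These 6 were picked out of 13 such genes after their values were seen, because libraries 11 to 22 nearly lacked them. Others did not behave that way: Ooep had 714 counts in libraries 1 to 9 and 88 in libraries 11 to 22, Gdf9 508 and 27, and Zp3 had 10 counts in libraries 1 to 9 and more in libraries 11 to 22. Bmp15 had 2.64 counts per count of Padi6 in libraries 1 to 9, against 0.00488 in P2.5 and 0.00385 in P6.5 oocytes. Padi6 and Nlrp5, as another pair, had 87 and 49 counts in libraries 1 to 9. They averaged 3239 and 1732 CPM in P2.5 oocytes and 18189 and 4060 CPM in P6.5 oocytes. The source of the counts in libraries 1 to 9 was not tested.

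**Figure D5:**
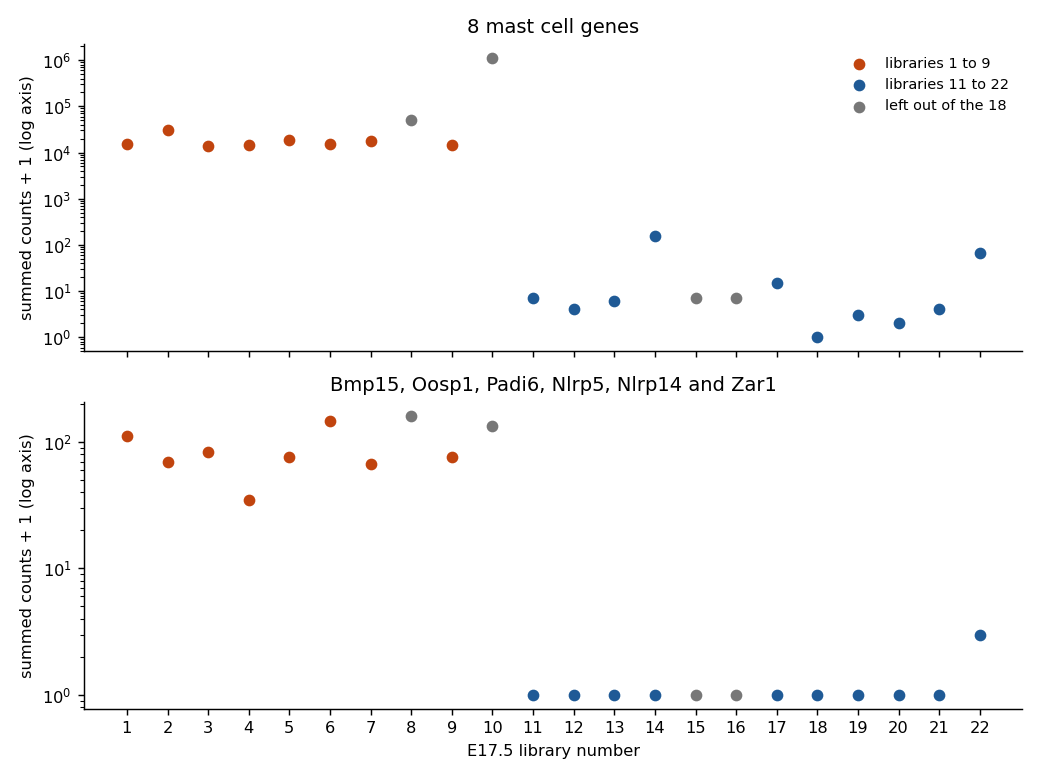
Summed counts of the 8 mast cell genes and of 6 late oocyte genes (vertical log axes, summed counts + 1) in each of the 22 E17.5 libraries (horizontal axis, library number), with libraries 1 to 9, libraries 11 to 22 and the 4 libraries left out in separate colours. The mast cell sum is 14023 to 31499 in libraries 1 to 9 and far lower in each of libraries 11 to 22, and the sum of the 6 oocyte genes, which were chosen after their values were seen, is at least 34 in libraries 1 to 9 and at most 2 in libraries 11 to 22.

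Kit and some oocyte transcription factors were also higher in libraries 1 to 9. Kit averaged 819.6 ± 595 CPM in libraries 1 to 9 and 70.3 ± 64.6 CPM in libraries 11 to 22 (SD over 8 and 10 cells), a log2 ratio of 3.54. Nobox had a log2 ratio of 4.70, Lhx8 4.55, Sohlh1 4.46 and Figla 3.08, and all 5 genes kept these signs with spike-in and median-of-ratios scaling. Lhx8 lay at 45.5 to 632 CPM in libraries 1 to 9 and at 0 to 70.5 CPM in libraries 11 to 22. Of the oocyte transcription factor list 5 of 9 were at least 2-fold higher and 1 lower, against 17.4% higher and 21.5% lower of all genes. Ccno, a cyclin of oocytes, had 6.54 to 586 CPM in libraries 1 to 9 and no count in libraries 11 to 22, and was highest in libraries 3, 9 and 5. Library 10 had 61 counts of it.

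Lists of somatic cells did not all differ in one direction. Of the granulosa list 6 of 8 were at least 2-fold lower in libraries 1 to 9 and 1 higher, against 21.5% and 17.4% of all genes, and 5 of 6 lower and 1 higher without libraries 4, 7, 18 and 19. Of the surface epithelium list 3 of 5 were lower and 1 higher, of the stroma list 1 of 2 lower and 1 higher, of the endothelium list 0 of 2 lower and 1 higher, and of the immune list 3 of 3 higher. A gene measured through only one subset had to differ, so these counts are in part set by the level limit. The 8 genes of lowest ratio were Sdc4, Amotl2, Col6a1, Col3a1, Thbs2, Axl, Thbs1 and Rnd3, genes of the cell surface and matrix. Sdc4, a proteoglycan, had 0 to 0.222 CPM in libraries 1 to 9 and 8.56 to 982 CPM in libraries 11 to 22, and the collagen Col3a1 had 0 to 0.207 CPM and 4.67 to 667 CPM. Each of the 10 cells of libraries 11 to 22 thus held counts of genes that libraries 1 to 9 nearly lacked. Glycolysis was lower in 9 of 16 genes and higher in 1, and immediate early and heat shock genes lower in 8 of 14 and higher in 1. Without libraries 4, 7, 18 and 19 the immediate early and heat shock list was lower in 5 of 14 and glycolysis in 11 of 16.

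Meiosis genes differed less between the subsets. Of 67 measured, 3 were at least 2-fold higher and 9 lower in libraries 1 to 9, against 17.4% and 21.5% of all genes. Dazl (log2 ratio 0.11), Ddx4 (0.05), Sycp1 (0.07), Hfm1 (−0.05), Majin (0.07) and Dmc1 (−0.16) had like means, and the sign of Dazl, Ddx4, Sycp1 and Majin turned with spike-in scaling (−0.10, −0.48, −0.28 and −0.23) and that of Hfm1 with median-of-ratios scaling (0.08). Sycp3 was higher (log2 ratio 1.10, and 0.91 with spike-in scaling) and Stra8 was lower (−3.03), with library 17 far above the other cells. Of the piRNA and germ granule list 6 of 16 were higher and 0 lower, Piwil2 with a log2 ratio of 1.68 and Tdrd9 with 1.86.

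Set against oocytes after birth, the E17.5 cells held more RNA of meiosis genes as a share of their counts, from less RNA in all. Gene counts per spike-in count had a median of 59.9 in libraries 1 to 9 and 86.1 in libraries 11 to 22, against a median of 465 in P2.5 and 3203 in P6.5 cells, if the same amount of spike-in was added to each. Of the 67 meiosis genes measured, 43 were at least 2-fold higher in E17.5 than in P2.5 cells and 5 lower (median log2 ratio 1.44), against 26.8% higher and 23% lower of 12539 genes. A gene that passed the level limit only through E17.5 could only come out higher, so these counts are in part set by that limit. With spike-in scaling, which compares RNA per cell, 11 of 64 were higher and 41 lower (median −1.46), where 94.7% of all genes were lower and the median gene was at −2.89. The meiosis genes thus stood above the median gene under both scalings, and the direction in absolute terms turned round.

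Some genes were higher in E17.5 cells under CPM, median-of-ratios and spike-in scaling alike. Meioc averaged 311.3 CPM in E17.5 and 0.981 CPM in P2.5 cells, a log2 ratio of 7.72 that was 4.77 with spike-in scaling. Stra8 had 6.99 and 4.76, Spo11 6.51 and 3.58, Ccnb3 6.26 and 3.33, Hfm1, a crossover helicase, 5.10 and 2.35, and Majin 5.04 and 2.15. Taf7l, a germ cell variant of a general transcription factor, had 4.51 and 1.64, and H2-D1 5.54 and 2.47. In P2.5 oocytes Meioc, Stra8, Spo11 and Majin averaged 0.981, 0.122, 1.11 and 2.2 CPM. By contrast Sycp3 averaged 295.9 CPM in E17.5 and 356 CPM in P2.5 cells, a log2 ratio of −0.27 that was 0.21 with median-of-ratios and −3.10 with spike-in scaling, and Sycp1 (1.87), Zcwpw1 (1.44) and Ddx4 (1.14) were higher in E17.5 cells by CPM and lower with spike-in scaling, at −1.01, −1.49 and −1.66.

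Of the oocyte growth list 15 of 16 were at least 2-fold lower in E17.5 than in P2.5 cells and 1 higher, and of the pluripotency list 8 of 8 were lower, against 23% lower and 26.8% higher of all genes. A gene that passed the level limit only through P2.5 had to be lower, so these counts are in part set by that limit. Dppa3, which oocytes make, averaged 101.9 CPM in E17.5 and 2232 CPM in P2.5 cells, Nobox 105.6 CPM in E17.5 and 906 CPM in P2.5 cells, and Kit 403 CPM in E17.5 and 1426 CPM in P2.5 cells. Against P6.5, 46 of 67 meiosis genes were at least 2-fold higher in E17.5 cells and 4 lower, where 33.5% of 12623 genes were higher and 23.6% lower. Genes that passed the level limit only through E17.5 could only come out higher here too.

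E17.5 cells also varied more. After each cell was thinned to 1000000 counts, the median spread over 5237 genes was 1.09 in libraries 1 to 9 and 1.22 in libraries 11 to 22, against 0.724 in P2.5 and 0.455 in P6.5 cells. Of these genes, 81.8% (libraries 1 to 9) and 87.4% (libraries 11 to 22) were wider than in P2.5, and 96.1% and 97.1% wider than in P6.5. Gene counts per spike-in count differ between the stages in the same order, and the part of RNA content per cell in this spread was not tested.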

How the data were processed

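Each library is 1 cell. Per the labels, RNA was amplified with Smart-seq2, libraries were made with a KAPA HyperPlus kit and sequenced in pairs on a NovaSeq. The authors deposited raw counts per gene and, in a second table, FPKM (scaled by gene length and depth). The submitters' processing notes name mm10, the aligner STAR (2.7.10b) and the counters HTSeq (0.13.5) and RSEM (1.3.3). The tool behind each table, its strand setting and its treatment of shared reads were not stated. The counts hold 54658 gene rows and 92 spike-in rows, which were left out of library sizes. Gene places and exon lengths are those of GENCODE M21, matched by symbol for 54106 rows.

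Counts were scaled to CPM with pandas 2.3.3 and numpy 2.4.6. Spread, correlation and ratios were computed as defined in the report, with a pseudocount of 1 CPM on the log scale, and the scripts were tested on simulated data. A ratio is called at 2-fold. Libraries whose counts differed by a median chi-square per gene under 1.5 were counted as 1 cell, which merged 24 P2.5 pairs and no E17.5 pair. The lowest value among the 18 cells was 2.84, for libraries 4 and 7. Libraries 12 and 13, the other E17.5 pair nearest to each other, had 27.1. Cells were picked singly, so doublets were not called. The markers of endothelium, immune cells and surface epithelium had at most 116.99, 186.9 and 325 summed CPM in the 18 cells. Counts without molecular identifiers are reads, not molecules.

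The genes named are the 4 germ cell markers, the 12 of highest median FPKM, the 12 of highest and 6 of lowest excess spread in both subsets, the 6 closest and 3 most opposed genes of Stra8, Meioc, Sycp3, Figla and Fos, the 8 at either end of the subset ratio, and up to 2 of highest mean and of highest spread per list. Other genes were chosen after their values were seen. The cells, the lists and the rules were chosen with earlier results of these data known. Some genes that the rules name are not reported here.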

Additional observations from a re-analysis of the deposited data

Results flagged for a closer look

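Dixon's test for a sample far from the others of its group was made for 58 combinations of a summed quantity and a subset, and chance flags about 1 in 20. It named 6. Library 4 had 14.1623% of its counts on mitochondrially encoded genes, and library 7 had 36.7297% on rRNA rows, each far above the other cells of libraries 1 to 9. The summed cohesin genes of library 6 stood at 5640.27 CPM, the highest of libraries 1 to 9, led by Stag3. The summed globin and other erythroid genes of library 3 stood at 602.55 CPM, the lowest of that subset. Among libraries 11 to 22, the summed pluripotency and primordial germ cell genes of library 17 stood at 1381.22 CPM, and the summed immune genes of library 18 at 15.9347 CPM. Why these cells stood apart was not tested.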

How the results depend on the processing

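Of 72 main values under alternatives other than single cells left out, 60 kept their direction and stayed close to the reported value, as did 802 of the values of single genes and pairs, of which 95 others moved and 9 reversed. As a coefficient of variation, spread had a median of 0.766 in libraries 1 to 9 and 0.79 in libraries 11 to 22, a different scale, and 8 genes of high spread were shared. Spearman correlation gave 47 meiosis pairs. Genes at least 2-fold lower in libraries 1 to 9 numbered 4145 with spike-in scaling and 1698 in FPKM, against 2718, and a filter of 1 CPM gave 3767 higher and 4461 lower. For E17.5 over P2.5, 5241 genes were higher with median-of-ratios scaling and 5743 with the 1 CPM filter, against 3355, and spike-in scaling gave 94 higher and 10140 lower. Spike-in scaling turned the log2 ratio of Brca2 (−1.84), Ddx4 (−1.66), Hells (−1.25), Sun1 (−1.26), Sycp1 (−1.01), Terb1 (−1.18) and Zcwpw1 (−1.49). In FPKM the excess of Ranbp1 was 0.0196 and the r of Figla and Lman2l −0.31. The causes were not tested.

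With each cell left out in turn, the spread was 1.14 to 1.31 in libraries 1 to 9 and 1.29 to 1.41 in libraries 11 to 22, the shared genes of high spread 8 (without library 6) to 21, the meiosis pairs 53 to 97, the genes higher in libraries 1 to 9 2156 to 2306 and lower 2632 to 2943, and those higher in E17.5 than in P2.5 3287 to 3421 and lower 2826 to 2971. Depth limits low genes, above all in libraries 4 and 7. No paired analysis was possible because library numbers shared between stages only count libraries and no test between groups was made.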
